A study of Mus musculus with 7 samples.

Results

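The solute carrier (Slc) genes encode the membrane proteins that move sugars, amino acids, metals, vitamins and ions across the plasma membrane and the membranes of organelles. The genes described here are 120 of the 362 genes on the array whose symbol begins with Slc. A gene was kept when the probe set with its highest mean over all 7 arrays had a mean log2 level above 8. This applied to 120 genes, while 232 others lay at or below that level, and 10 were left out by name (Slc2a1, Slc16a3, Slc11a1, Slc11a2, Slc40a1, Slc39a14, Slc30a1, Slc7a11, Slc15a3 and Slc15a4). The genes were thus chosen by their measured mean levels. The closest genes above the limit were Slc7a4 at a mean of 8.04, Slc35d1 at 8.04 and Slc25a32 at 8.10. Those just below were Slc22a12 at 7.97, Slc22a18 at 7.94 and Slc38a9 at 7.86. Slc9a3r1 and Slc4a1ap carry a family symbol but encode partner proteins of carriers.

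The samples were 7 cultures of mouse macrophages grown from bone marrow, each measured on 1 Affymetrix array. All were held for 24 h and then for 3 h. MDP is muramyl dipeptide, a fragment of bacterial cell wall sensed by NOD2, and Pam3CSK4 is a synthetic bacterial lipopeptide sensed by TLR2. 2 cultures received Pam3CSK4 for the 24 h and then either Pam3CSK4 or MDP, 2 received MDP for the 24 h and then either Pam3CSK4 or MDP, and 3 were naive, with no ligand in the first period. The naive cultures then received Pam3CSK4, MDP or nothing. The labels give 1 mg/ml for Pam3CSK4 and 10 mg/ml for MDP, units that the files used here cannot check and that are high for such ligands, and they name no mouse strain, sex or age. No culture was pretreated and then left without a second ligand, so a residue of the first ligand's response cannot be told apart from a changed response to the second. Each group had 1 array, so the differences below have no replicate check, no error and no test. They compare single cultures.

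A macrophage that meets bacterial products rewires its metabolism and the traffic of metals. Carriers at the plasma membrane set what the cell takes up, carriers of the inner mitochondrial membrane (the Slc25 family) exchange metabolites between mitochondrion and cytosol, and the Slc35 family brings nucleotide sugars into the Golgi and endoplasmic reticulum for glycosylation. Zinc is moved by the Slc30 (ZnT) and Slc39 (ZIP) families, which run in opposite directions.

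Levels are log2 values after robust multi-array averaging (RMA), and a difference of 1 on that scale is 2-fold. The 7 array medians lay between 5.48 and 5.55, and each of the 120 genes was above its array's median on all 7 arrays. 109 were above 8 on every array. 3 genes, Slc13a3, Slc2a6 and Slco3a1, were at or below 8 on the array of unstimulated cells and thus entered through arrays on which they were higher. A count that includes them is partly set by the way the genes were chosen. All 8 measured macrophage markers (Csf1r, Adgre1, Cd68, Itgam, Fcgr1, Lyz2, Mertk and Cd14) were above the median on every array, with a summed level between 16.60 and 16.79 on the log2 scale. In bulk samples, fewer cells of a type and less RNA per cell cannot be told apart.

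Across the 9 comparisons, 23 of the 120 genes differed at least 2-fold in at least 1 (19.2%), and 97 in none. This is beside 13.7% of the 7077 genes above the same mean level and 8.39% of all 18193 genes. The same 2-fold step is the one that the series' design text uses for tolerized genes.

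**Figure D1:**
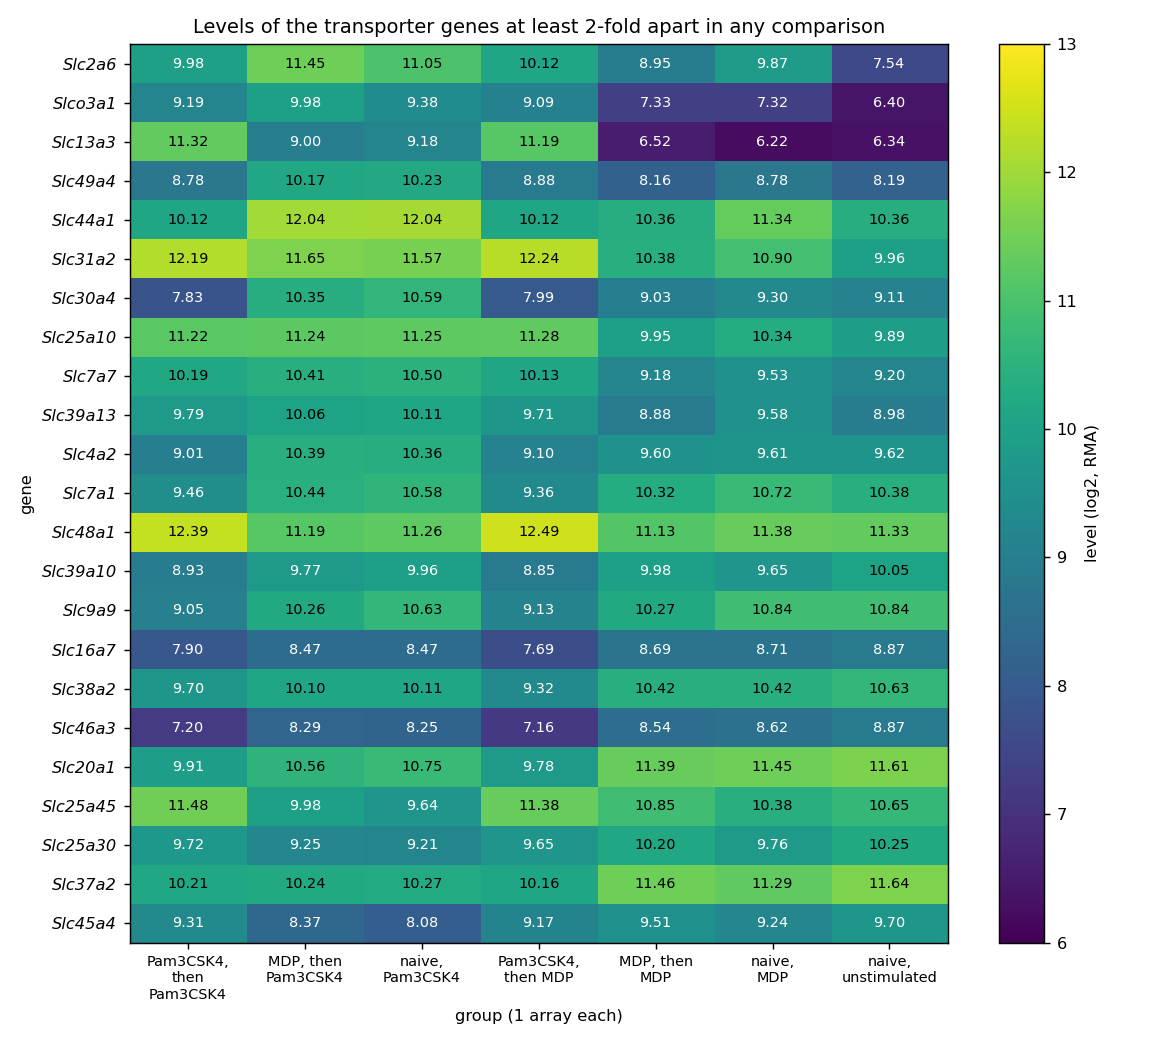
Log2 RMA level of the 23 transporter genes that differed at least 2-fold in at least 1 comparison (rows) on each of the 7 arrays (columns, 1 array a group), with the value printed in each cell and by colour. Colours compare arrays within a row, and Slc13a3 ran between 6.22 on the array of naive cells with MDP and 11.32 on the array given Pam3CSK4 in both periods.

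Slc2a6, a hexose transporter also called GLUT6, had the largest difference with either ligand in naive cells. Its level was 11.05 with Pam3CSK4 and 9.87 with MDP, against 7.54 in unstimulated cells. Both ligands gave more Slc2a6 signal, 11.4-fold with Pam3CSK4 and 5.04-fold with MDP. It was the 1 gene of the 120 at least 2-fold higher with MDP, and 0 were 2-fold lower. Over all 7077 genes above the same mean level, 1.31% were 2-fold higher and 0.0989% 2-fold lower with MDP, and over all 18193 genes 0.583% and 0.17%. A count of 1 in 120 (0.833%) is close to these shares. The next largest differences with MDP were 0.98 for Slc44a1, 0.94 for Slc31a2 and 0.92 for Slco3a1, all under 2-fold. At a 3-fold step Slc2a6 was again the 1 higher gene, beside 0.523% of the 7077 genes and 0.22% of all genes. The median difference with MDP was -0.10 over the 120 genes, against -0.07 over the 7077, and 114 of the 120 lay within 0.5 of 0.

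Pam3CSK4 in naive cells gave 10 transporter genes at least 2-fold above unstimulated cells and 4 at least 2-fold below. This is 8.33% higher and 3.33% lower, beside 4.21% and 2.94% of the 7077 genes of like level and 2.27% and 1.95% of all genes. 3 of the 10 higher genes are those that entered through such arrays, so the excess over 4.21% is not independent of the choice. Most of the 120 genes differed little: 85 lay below unstimulated cells and 35 above, with a median of -0.15, against -0.13 over the 7077 genes. At a 3-fold step, which the design text uses for induced genes, 6 genes were higher and 1 was lower, against 2.37% and 0.918% of the 7077 genes and 1.28% and 0.605% of all genes.

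Among the carriers of the plasma membrane, Slco3a1, an organic anion transporting polypeptide, was at 9.38 with Pam3CSK4 and 7.32 with MDP, against 6.40 in unstimulated cells. The difference with Pam3CSK4 was 2.97. Slc13a3, the sodium-coupled dicarboxylate transporter that takes up succinate and related acids, was at 9.18 with Pam3CSK4 and 6.22 with MDP, against 6.34 in unstimulated cells. It was thus 7.16-fold higher with Pam3CSK4. With MDP its probe sets gave no common direction: this one lay 0.11 below unstimulated cells and the other bright one 0.66 above.

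Slc44a1, a choline transporter, was at 12.04 with Pam3CSK4 and 11.34 with MDP, against 10.36 in unstimulated cells. Its second probe set differed by only 0.27 with Pam3CSK4, at 8.29 against 8.01, and by 0.20 with MDP. The 3.21-fold difference of the brighter one with Pam3CSK4 is thus not shared by both. Slc7a7, which pairs with Slc3a2 to exchange cationic for neutral amino acids, was at 10.50 with Pam3CSK4 and 9.53 with MDP, against 9.20 in unstimulated cells. Its partner Slc3a2 differed little between these arrays, at 12.70, 12.84 and 12.78 in that order.

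Of the 10 higher genes, 4 came from the metal and haem class, which was drawn up by family number and holds 17 of the 120 genes. Slc49a4, a carrier of the lysosomal membrane whose cargo is not assumed here, was at 10.23 with Pam3CSK4 and 8.78 with MDP, against 8.19 in unstimulated cells. Slc31a2, a copper transporter of endosomes and lysosomes, was at 11.57 with Pam3CSK4 and 10.90 with MDP, against 9.96 in unstimulated cells. The related uptake transporter Slc31a1 was at 11.26 and 10.65, against 10.31, and its difference of 0.95 with Pam3CSK4 fell just short of 2-fold.

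Slc30a4 (ZnT4), which moves zinc out of the cytosol into vesicles, was at 10.59 with Pam3CSK4 and 9.30 with MDP, against 9.11 in unstimulated cells. Slc39a13 (ZIP13), a zinc carrier that works the other way, was at 10.11 and 9.58, against 8.98. With Pam3CSK4 these differences were 1.49 and 1.13. The 17 genes of the class had a median difference of 0.19, the only positive one among 8 classes of transporters, with 10 genes above 0 and 7 below. The class lacks Slc11a1, Slc11a2, Slc40a1, Slc39a14 and Slc30a1 of the same families, which were left out by name. Its median and its share of the higher genes thus describe only the genes kept.

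In mitochondria, Slc25a10, the dicarboxylate carrier that exchanges malate and succinate for phosphate, was at 11.25 with Pam3CSK4 and 10.34 with MDP, against 9.89 in unstimulated cells. Of the other 24 Slc25 genes, Slc25a30 and Slc25a45 were at least 2-fold lower with Pam3CSK4. Slc25a30 was at 9.21 with Pam3CSK4, against 10.25 in unstimulated cells, and Slc25a45 was at 9.64 against 10.65. Slc25a13, an aspartate-glutamate carrier, differed by -0.91, and the citrate carrier Slc25a1 had levels of 10.22 with Pam3CSK4 and 10.16 in unstimulated cells.

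The other 2 genes at least 2-fold lower were Slc45a4 and Slc37a2. Slc45a4 was at 8.08 with Pam3CSK4 and 9.24 with MDP, against 9.70 in unstimulated cells. Slc37a2, a sugar-phosphate exchanger of the endoplasmic reticulum abundant in macrophages, was at 10.27 with Pam3CSK4 and 11.29 with MDP, against 11.64 in unstimulated cells. Both were lower with either ligand and lowest with Pam3CSK4. Averaged over all probe sets of the gene, dim ones included, Slc45a4 differed by -0.87 and Slc25a30 by -0.64 with Pam3CSK4, both short of 2-fold. The second probe set of Slc45a4, above the array median on every array, differed by -0.55.

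No Slc35 gene passed 2-fold with Pam3CSK4, and the 18 of them ran between -0.59 and 0.03 with a median of -0.20. In all, 17 of the 18 lay below 0, against 85 of all 120 transporters. The 17 carriers of amino acids and peptides had the lowest class median, -0.34. Next below 2-fold among them were Slc36a4 at -0.96, Slc66a1 (a cationic amino acid exporter of the lysosome) at -0.90 and Slc43a2 (an uptake carrier of large neutral amino acids) at -0.86. Among nucleoside carriers, Slc29a3, of the lysosomal membrane, differed by -0.86. Among ion carriers, the phosphate transporter Slc20a1 differed by -0.87 and the anion exchanger Slc4a2 by 0.73.

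**Figure D2:**
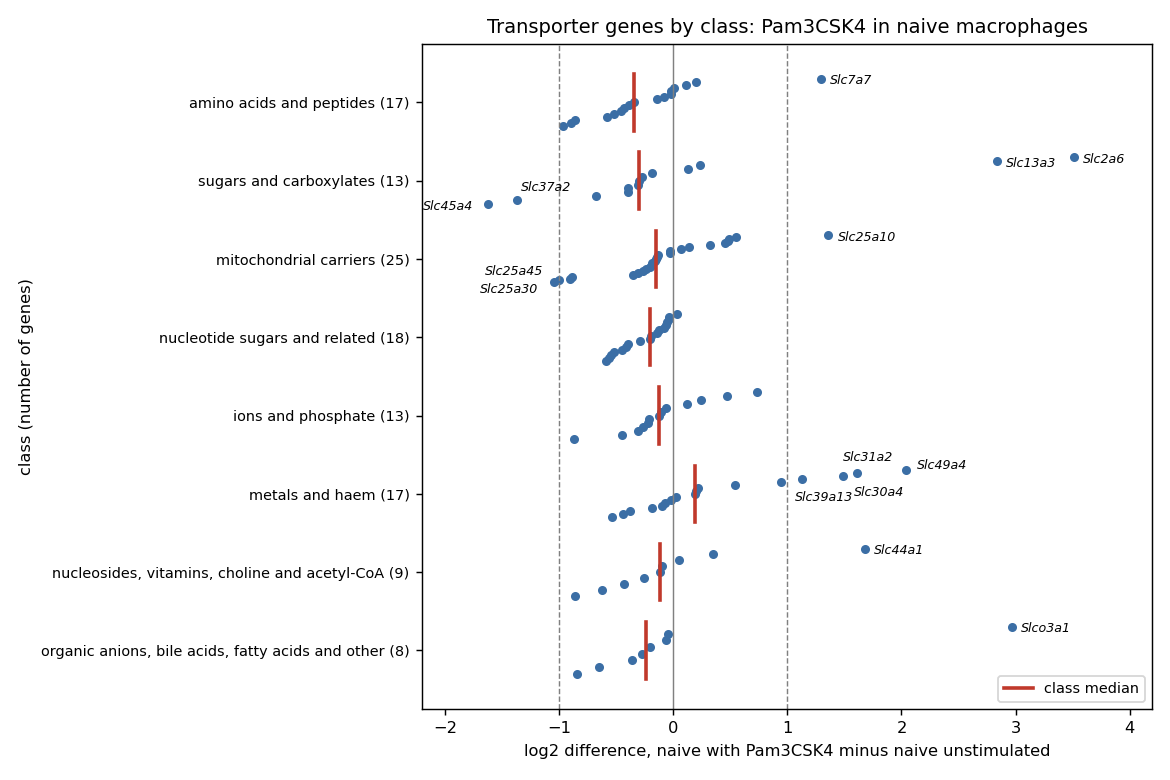
Log2 difference between naive cells with Pam3CSK4 and unstimulated cells (horizontal axis) for each of the 120 transporter genes in 8 classes (vertical axis, number of genes in brackets), 1 point a gene, with the class median as a bar and 2-fold as dashed lines. The named genes are the 10 above and 4 below 2-fold, and Slc2a6 stands farthest out at 3.52.

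Set directly against each other in naive cells, Pam3CSK4 gave 5 transporter genes at least 2-fold above MDP (4.17%) and 2 below (1.67%), beside 2.37% and 1.24% of the 7077 genes and 1.4% and 0.709% of all genes. The 5 were Slc13a3 at 2.95, Slco3a1 at 2.06, Slc49a4 at 1.45, Slc30a4 at 1.30 and Slc2a6 at 1.18. The 2 lower genes were Slc45a4 at -1.16 and Slc37a2 at -1.01. These differences share arrays with those against unstimulated cells and are not separate evidence.

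The same transporter genes were higher with Pam3CSK4 after MDP pretreatment. In cells given MDP and then Pam3CSK4, 10 genes were at least 2-fold above cells given MDP and then MDP, and 2 below, beside 4.2% and 2.08% of the 7077 genes and 2.41% and 1.42% of all genes. This comparison uses 2 other arrays than the one in naive cells. All 10 higher genes were the 10 found in naive cells, and the 2 lower genes, Slc37a2 at -1.22 and Slc45a4 at -1.14, were among the 4. The genes were chosen by means that include these arrays. Slc13a3, Slc2a6 and Slco3a1 entered through arrays on which they were higher, among them that of MDP then Pam3CSK4. This recurrence is thus not independent of the choice. Of the 7077 genes, 267 of 298 higher genes (89.6%) and 137 of 208 lower genes (65.9%) were likewise found again. Over the 120 transporters the differences correlated with r = 0.97 and rho = 0.89, against 0.96 and 0.90 over the 7077. These are correlations across genes, which are not independent replicates.

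Against naive cells given the same second ligand, MDP-pretreated cells had 0 transporter genes past 2-fold in either direction. With Pam3CSK4 as the second ligand the background was 0.551% higher and 0.0141% lower of the 7077 genes, and 0.297% and 0.022% of all genes. With MDP as the second ligand it was 0.48% higher and 0.678% lower of the 7077 genes, and 0.385% and 0.291% of all genes. A count of 0 in 120 is therefore close to what the arrays show at large.

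The largest differences with MDP given in both periods were -0.98 for Slc44a1, -0.92 for Slc2a6, -0.69 for Slc39a13 and -0.62 for Slc49a4. Slc44a1 was at 10.36 after MDP in both periods, against 11.34 in naive cells with MDP, and unstimulated cells were also at 10.36. Its second probe set, above the array median on every array, differed by only -0.19 here. Slc2a6 was at 8.95 after MDP in both periods, against 9.87 in naive cells with MDP, and still above the 7.54 of unstimulated cells. With Pam3CSK4 second, the largest were Slco3a1 at 0.60, Slc16a1 at -0.40 and Slc2a6 at 0.39. Slc2a6 and Slco3a1 had their highest levels of all 7 arrays there, at 11.45 and 9.98. On the same array the summed neutrophil markers (3 of 4 measured genes, Elane, Camp and Ngp, above the array median on all arrays) were at 11.21, against 10.47 to 10.94 on the others. Their part in these levels was not tested.

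Pam3CSK4 pretreatment separated the arrays more. With MDP as the second ligand, 5 transporter genes were at least 2-fold above naive cells with MDP (4.17%) and 9 below (7.5%), beside 3.63% and 3.08% of the 7077 genes and 2.14% and 1.71% of all genes. With Pam3CSK4 as the second ligand, 4 were above naive cells with Pam3CSK4 (3.33%) and 9 below (7.5%), beside 4.04% and 3.93% of the 7077 genes and 2.41% and 2.3% of all genes. The shares of higher genes were close to the background and those of lower genes above it, over 9 genes each. Among the lower genes, Slc30a4, Slc46a3 and Slc16a7 were below 8 in both Pam3CSK4-pretreated cultures and so entered through other arrays. The excess of lower genes is thus not independent of the choice. With a gene's probe sets averaged, dim ones included, the lower genes were 5 in place of 9 in both comparisons. The median differences were near 0, at -0.06 and 0.03.

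The 2 pretreatment comparisons share no array. They had 3 higher genes in common, Slc13a3, Slc25a45 and Slc48a1, which are 60% of the first list and 75% of the second. They had 5 lower genes in common, Slc30a4, Slc44a1, Slc46a3, Slc7a1 and Slc9a9, which are 55.6% of each. This overlap was not counted over the 7077 genes, so the shares cannot be read as particular to the transporters. Over the 120 genes the differences correlated with r = 0.68 and rho = 0.63, and 84 (70%) had the same sign, against 0.71, 0.70 and 75.6% over the 7077 genes.

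Slc13a3 stood farthest out. Its level was 11.32 after Pam3CSK4 in both periods and 11.19 after Pam3CSK4 then MDP, against 9.18 in naive cells with Pam3CSK4 and 6.22 in naive cells with MDP. The difference was 2.14 (4.42-fold) with Pam3CSK4 second and 4.97 (31.3-fold) with MDP second. A level of 6.22 is little above that array's median of 5.55, where RMA values compress differences. The probe set used for Slc13a3 is of a kind dropped as less specific in 1 alternative. Its second probe set, which is not, differed at least 2-fold in the same direction in both comparisons. In MDP-pretreated cells Slc13a3 differed from naive cells by -0.18 with Pam3CSK4 second, and the second probe set by -0.29. With MDP second the probe sets had opposite signs, 0.30 and -1.04, so no direction can be given.

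Slc48a1, the transporter that brings haem out of lysosomes into the cytosol, was at 12.39 after Pam3CSK4 in both periods and 12.49 after Pam3CSK4 then MDP, against 11.26 and 11.38 in naive cells with Pam3CSK4 and with MDP. Unstimulated cells were at 11.33, so naive cells differed from it by -0.07 with Pam3CSK4 and 0.05 with MDP. On this probe set both Pam3CSK4-pretreated cultures were more than 2-fold above unstimulated cells. The second probe set of Slc48a1, above the array median on every array, was at 12.09 and 12.13 there. Against its 11.13 in unstimulated cells, both were just short of 2-fold. From naive cells it differed by 1.16 with Pam3CSK4 second and 0.95 with MDP second. Slc25a45 was at 11.48 and 11.38 in the same Pam3CSK4-pretreated cultures, against 9.64 and 10.38 in naive cells and 10.65 in unstimulated cells. Slc31a2 was at 12.19 and 12.24, against 11.57 and 10.90 in naive cells, and so passed 2-fold only with MDP second.

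Of the 25 mitochondrial carriers, 15 lay above naive cells with Pam3CSK4 second (median 0.14) and 12 with MDP second (median -0.06). Besides Slc25a45, 3 of them differed by more than 0.5 in both Pam3CSK4-pretreated cultures without reaching 2-fold. Slc25a12, an aspartate-glutamate carrier, differed by 0.93 with Pam3CSK4 second and 0.81 with MDP second. The glutamate carrier Slc25a22 differed by 0.66 and 0.80. The citrate carrier Slc25a1 was at 10.90 and 11.02, against 10.22 and 10.23 in naive cells.

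Among the lower genes, Slc30a4 lay the farthest below naive cells with Pam3CSK4 second. It was at 7.83 after Pam3CSK4 in both periods, against 10.59 in naive cells with Pam3CSK4, which is a difference of -2.77. After Pam3CSK4 then MDP it was at 7.99, against 9.30 in naive cells with MDP. Both levels also lay below the 9.11 of unstimulated cells, so Slc30a4 was more than 2-fold higher after 3 h of Pam3CSK4 and more than 2-fold lower after a 24 h exposure followed by either ligand.

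Slc9a9, a sodium-proton exchanger of endosomes, was at 9.05 after Pam3CSK4 in both periods and 9.13 after Pam3CSK4 then MDP, against 10.63 and 10.84 in naive cells with Pam3CSK4 and with MDP and 10.84 in unstimulated cells. Slc7a1, the main carrier for arginine uptake, was at 9.46 and 9.36, against 10.58 and 10.72 in naive cells and 10.38 in unstimulated cells. Slc46a3, a lysosomal carrier, was at 7.20 and 7.16, against 8.25 and 8.62 in naive cells and 8.87 in unstimulated cells. For these genes the 2 Pam3CSK4-pretreated cultures were the lowest of the 7. The probe sets next in brightness for Slc9a9 and Slc7a1 were at least 2-fold lower as well. Averaged over all its probe sets, also those below the array median, Slc9a9 differed by -0.76 with Pam3CSK4 second and -0.92 with MDP second, and Slc7a1 by -0.85 and -0.88.

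Slc44a1 was at 10.12 in both Pam3CSK4-pretreated cultures, against 12.04 in naive cells with Pam3CSK4 and 11.34 in naive cells with MDP. This was 0.24 below the 10.36 of unstimulated cells. Averaged over its probe sets, 2 of them below the array median, the difference was -0.58 with Pam3CSK4 second and -0.42 with MDP second, so neither reached 2-fold in that form. The second probe set, above the array median on every array, likewise differed by -0.57 and -0.42.

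4 genes were 2-fold lower with MDP second and short of 2-fold with Pam3CSK4 second. With Pam3CSK4 second they differed from naive cells by -0.84 (Slc20a1), -0.06 (Slc37a2), -0.42 (Slc38a2) and -0.58 (Slc16a7). After Pam3CSK4 in both periods Slc20a1 was at 9.91 and Slc37a2 at 10.21, against 10.75 and 10.27 in naive cells with Pam3CSK4. Slc20a1 was at 9.78 after Pam3CSK4 then MDP, against 11.45 in naive cells with MDP. Its probe set is of a kind dropped as less specific in 1 alternative, and the only one for this gene above the array median. Slc37a2 was at 10.16 against 11.29, Slc38a2 (neutral amino acid uptake) at 9.32 against 10.42, and Slc16a7 (a monocarboxylate carrier) at 7.69 against 8.71. Slc16a7 stood at the limit, with a difference of -1.01 that lay between -0.99 and -0.91 under 3 alternatives. The average over the probe sets of Slc38a2 differed by -0.51. Its 2 other probe sets, both above the array median on every array, differed by -0.03 and -0.40.

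4 genes were 2-fold lower with Pam3CSK4 second and not with MDP second. With MDP second they differed from naive cells by 0.10 (Slc49a4), -0.51 (Slc4a2), -0.79 (Slc39a10) and 0.25 (Slc2a6). Slc49a4 was at 8.78 after Pam3CSK4 in both periods, against 10.23 in naive cells with Pam3CSK4, on the only probe set for this gene above the array median. Slc4a2, which exchanges chloride for bicarbonate, was at 9.01 against 10.36, and Slc39a10 (ZIP10), a zinc uptake carrier, was at 8.93 against 9.96. Slc2a6 was at 9.98 against 11.05. Whether such a difference itself differs between the second ligands cannot be tested with 1 array a group.

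**Figure D3:**
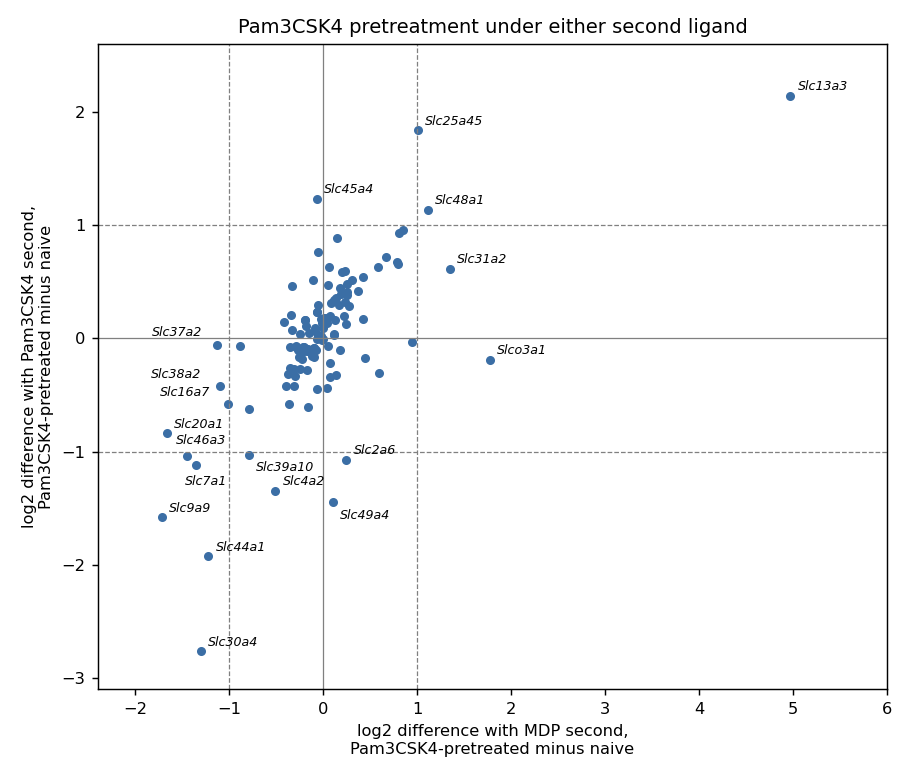
Log2 difference of Pam3CSK4-pretreated from naive cells for each of the 120 transporter genes, with MDP as the second ligand (horizontal axis) and with Pam3CSK4 as the second ligand (vertical axis), 1 point a gene, with 2-fold as dashed lines. Slc13a3 lies alone at 4.97 and 2.14, Slc30a4 lowest at -1.30 and -2.77, and most points cluster around 0.

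The second ligand made little difference after Pam3CSK4 pretreatment. Between cells given Pam3CSK4 in both periods and cells given Pam3CSK4 then MDP, 0 transporter genes were 2-fold apart, beside 0% higher and 0% lower of the 7077 genes and 0% and 0.0055% of all genes. The 120 differences ran between -0.30 for Slc16a10 and 0.38 for Slc38a2, so all lay within 0.5 of 0. In naive cells the same ligand contrast had left 95 of the 120 within 0.5. These 2 arrays were about as close over the 7077 genes as over the transporters. The spread of the differences, a scaled median absolute deviation, was 0.09 over the 120 genes and 0.09 over the 7077. The median differences were 0.02 and 0.00.

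Of the 10 genes at least 2-fold higher with Pam3CSK4 in naive cells, 5 stood at least 2-fold above unstimulated cells in both Pam3CSK4-pretreated cultures: Slc13a3, Slc25a10, Slc2a6, Slc31a2 and Slco3a1. The 10 were picked against the same unstimulated array, and Slc13a3, Slc2a6 and Slco3a1 entered through arrays on which they were higher, so these counts only describe where the genes stood. Slc25a10 was at 11.22 after Pam3CSK4 in both periods and 11.28 after Pam3CSK4 then MDP, beside 11.25 in naive cells with Pam3CSK4. Slc7a7, Slc39a13 and Slc49a4 lay between, less than 2-fold above unstimulated cells. Slc44a1 lay slightly and Slc30a4 more than 2-fold below them. All 10 were 2-fold above unstimulated cells after MDP then Pam3CSK4, and 1, Slc2a6, after MDP in both periods.

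Of the 4 genes 2-fold lower in naive cells with Pam3CSK4, Slc37a2 alone was also 2-fold below unstimulated cells in both Pam3CSK4-pretreated cultures, at 10.21 with Pam3CSK4 second and 10.16 with MDP second. Slc45a4 was at 9.31 and 9.17 there, against 8.08 in naive cells with Pam3CSK4.

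**Figure D4:**
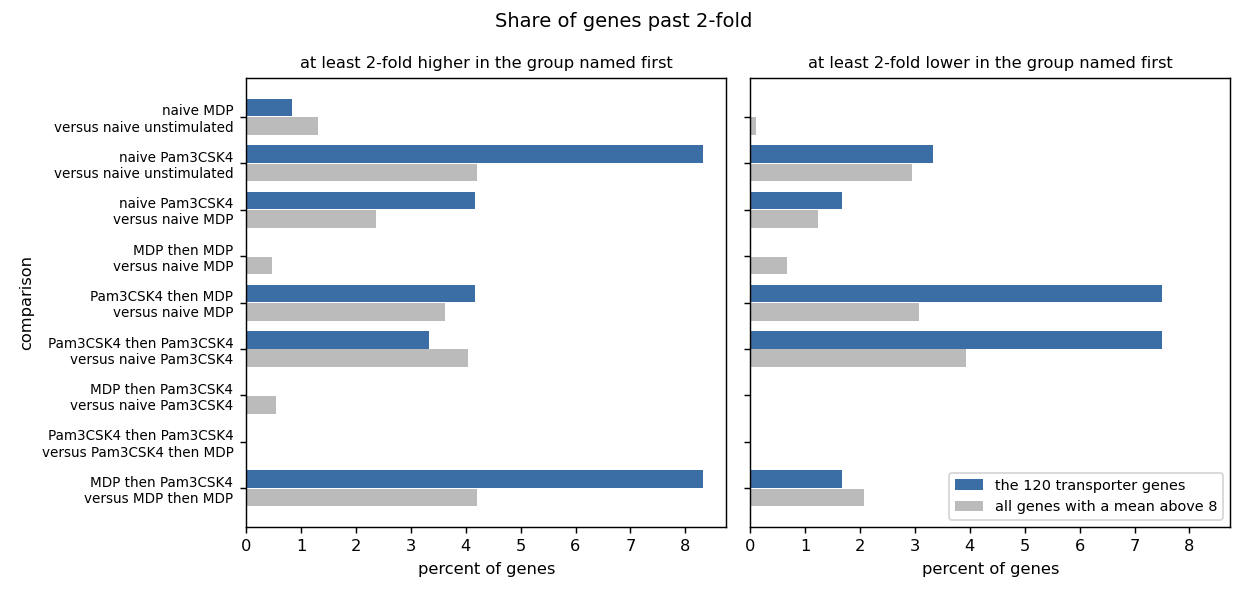
Percent of genes past 2-fold (higher on the left, lower on the right) in each of the 9 comparisons of 1 array with 1 array, for the 120 transporter genes and for the 7077 genes with a mean log2 level above 8. The transporters reach 8.33% higher with Pam3CSK4 in naive cells, beside 4.21% of the 7077 genes, and 7.5% lower in both Pam3CSK4-pretreatment comparisons.

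Other features of the Pam3CSK4-pretreated arrays differed too, stromal and B cell markers on both and 18S ribosomal RNA mainly after Pam3CSK4 in both periods. The summed level of the stromal markers was 8.79 after Pam3CSK4 in both periods and 8.98 after Pam3CSK4 then MDP, against 7.94 to 8.05 on the other 5 arrays. Of the 5 listed genes, Col1a2 and Dcn were above the array median on all arrays, and Col1a1, Col3a1 and Pdgfrb were below it on all. The 3 probe sets for 18S ribosomal RNA had a median 1.70 above unstimulated cells on the array given Pam3CSK4 in both periods, against 0.28 to 0.48 on the other 5. The B cell markers were also highest on these arrays, at 8.65 after Pam3CSK4 in both periods and 8.80 after Pam3CSK4 then MDP, against 8.15 to 8.46 on the other 5. Of the 4 measured, Cd79b and Pax5 were above the array median on all arrays. The part of these markers and of 18S in the transporter differences was not tested. The T and NK cell markers summed to between 8.61 and 8.73 over the 7 arrays, dendritic cell markers to between 7.68 and 7.84, and mast and erythroid markers to between 7.39 and 7.64.

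Transport proteins outside the family were read from 2 lists. Of 18 listed partner subunits and ion pumps 16 were measured, and 1, the calcium pump gene Atp2a3, passed 2-fold in any comparison. It was at 8.38 after Pam3CSK4 in both periods and 8.25 after Pam3CSK4 then MDP, against 9.84 and 9.78 in naive cells with Pam3CSK4 and with MDP. Of 23 listed ABC transporters 21 were measured, and 1 was 2-fold higher with Pam3CSK4 in naive cells, beside the 2.27% of all genes given above. It was Abcc4, an exporter of organic anions and cyclic nucleotides, at 9.68 in naive cells with Pam3CSK4, against 8.46 in unstimulated cells. Abcb1b, a multidrug exporter, was at 7.63 and 7.65 in the Pam3CSK4-pretreated cultures, against 8.79 and 8.69 in naive cells. Abcd4 was 1.07 higher after Pam3CSK4 in both periods than in naive cells with Pam3CSK4.

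The start regions of 4 genes are shown because the results turn on them: the largest response to either ligand (Slc2a6), the largest pretreatment difference (Slc13a3), the largest response to Pam3CSK4 in the metal and haem class (Slc49a4) and the lower gene that stayed low (Slc37a2). Each is the 250 bases before the transcript start in RefSeq's GRCm38.p6 table, written 5′ to 3′ on the gene's strand, with matches to any searched motif in capitals.
Slc2a6, chr2:27027999-27028248, minus strand: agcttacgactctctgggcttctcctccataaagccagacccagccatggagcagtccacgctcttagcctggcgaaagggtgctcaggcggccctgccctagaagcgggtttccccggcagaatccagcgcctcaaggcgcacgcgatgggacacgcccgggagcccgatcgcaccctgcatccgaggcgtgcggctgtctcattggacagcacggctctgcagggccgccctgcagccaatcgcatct
Slc13a3, chr2:165473198-165473447, minus strand: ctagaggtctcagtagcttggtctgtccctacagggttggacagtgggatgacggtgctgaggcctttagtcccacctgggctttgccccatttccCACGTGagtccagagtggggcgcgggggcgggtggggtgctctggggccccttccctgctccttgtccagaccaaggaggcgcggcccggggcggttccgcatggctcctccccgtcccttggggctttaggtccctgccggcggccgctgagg
Slc49a4, chr16:35769371-35769620, minus strand: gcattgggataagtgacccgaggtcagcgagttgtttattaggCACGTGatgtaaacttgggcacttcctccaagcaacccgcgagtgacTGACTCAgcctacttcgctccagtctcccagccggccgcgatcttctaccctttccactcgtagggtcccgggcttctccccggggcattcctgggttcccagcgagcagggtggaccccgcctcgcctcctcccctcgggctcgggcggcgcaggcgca
Slc37a2, chr9:37255739-37255988, minus strand: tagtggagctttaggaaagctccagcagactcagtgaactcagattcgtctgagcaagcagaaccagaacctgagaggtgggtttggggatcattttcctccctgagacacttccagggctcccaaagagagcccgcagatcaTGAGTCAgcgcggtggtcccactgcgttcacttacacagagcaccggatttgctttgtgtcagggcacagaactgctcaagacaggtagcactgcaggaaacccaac

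4 motifs were searched on both strands: the E-box CACGTG, the AP-1 motif TGANTCA, an NF-kB motif and an interferon response motif. CACGTG and TGANTCA read the same on both strands, and no matches shown above overlap. Slc13a3 held 1 E-box, Slc49a4 1 E-box and 1 AP-1 motif, Slc37a2 1 AP-1 motif and Slc2a6 none of the 4. Of the 120 genes 97 were in the table, and 20 of them (20.6%) held the E-box, against 11.2% of the 5858 genes of like level in the table and 6.86% of all 27025. The AP-1 motif was in 8 (8.25%), against 5.46% and 7.82%. The NF-kB motif was in 1, Slc37a4 (1.03%, against 1.79% and 1.65%), and the interferon response motif in 1, Slc25a22 (1.03%, against 3.43% and 3.46%). Of the 10 genes 2-fold higher with Pam3CSK4, 9 were in the table, and 0 held the NF-kB motif, beside 5.16% of the genes of like level that were 2-fold higher. A match describes these letters in this window and is not a site of binding.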

How the data were processed

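Total RNA of 7 cultures was labelled and hybridised, per the labels' protocols. The deposited values are log2 levels per probe set, made by the authors with RMA in affy, per the submitters' processing notes. Versions, and which arrays were normalized together, are not given in the sources used here. The 45101 probe sets ran between 2.95 and 15.1 with no missing value, were never negative and higher means more signal; array medians were 5.48 to 5.55. No scale, centring or direction stays unknown.

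Probe sets were named from GEO's platform annotation. Of these, 34945 had 1 symbol, 932 several and 64 were controls. Each of 18193 genes took the probe set with the highest mean. Differences between single arrays were counted past 2-fold over all genes, over the 7077 genes with a mean above 8 and over the transporters. The genes, lists and comparisons were chosen with earlier results of these data known, and 2 of the 9 comparisons were added after the values were seen. Named genes are those past 2-fold in a comparison, up to 4 per class with the largest difference, and a short list of well-known transporters. Alternatives were averaging all probe sets of a gene, dropping the less specific ones, centring on medians or housekeeping genes, 32 added to linear values, a mean above 9 and a 3-fold step. Probe sets with names ending in _a_at, _s_at or _x_at were all taken as less specific. Those used for Slc13a3, Slc20a1, Slc37a2, Slc48a1 and others were among them. Python 3.11.15, pandas 2.3.3, numpy 2.4.6 and scipy 1.17.1 were used. The counting code was run on simulated data with large shifts, which checks the code and not the reliability of the counts.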

Additional observations from a re-analysis of the deposited data

Results flagged for a closer look

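The probe sets for 18S ribosomal RNA, controls that none of the comparisons used, stood out on 1 array. Their median was 1.70 (log2) higher after Pam3CSK4 in both periods than in unstimulated cells, against 0.28 to 0.48 for the other 5 stimulated arrays. With 1 array a group no array could be tested against others of its group.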

How the results depend on the processing

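Of 166 comparisons of a count or median with an alternative, 151 stayed within tolerance (1.5 times for a count, 0.1 for a median). Averaging a gene's probe sets gave 2 lower genes in place of 4 with Pam3CSK4 in naive cells against unstimulated, 1 in place of 2 for Pam3CSK4 against MDP in naive cells and for Pam3CSK4 against MDP after MDP, and 5 in place of 9 in both Pam3CSK4-pretreatment comparisons. Without less specific probe sets (106 genes left) both Pam3CSK4 against MDP comparisons had 1 lower gene in place of 2. The gene lost was Slc37a2, whose only probe set was dropped, so it had no value there. MDP in both periods against naive MDP had 1 lower gene in place of 0, Slc13a3 at -1.04 in place of 0.30. Centring on 9 housekeeping genes gave 2 lower genes in place of 4 (Pam3CSK4 against unstimulated) and 1 in place of 2 (Pam3CSK4 against MDP, naive), and adding 32 gave 1 in place of 2 in the same comparison. The 80 genes with a mean above 9 held 3 higher genes in place of 5 for Pam3CSK4 against MDP in naive cells and after Pam3CSK4 pretreatment with MDP second. The 3-fold step against unstimulated cells gave 6 higher genes in place of 10 and 1 lower in place of 4. The 61 single differences past 2-fold were each recomputed under several alternatives, which gave 297 values. Of these values 268 stayed past 2-fold, 29 did not and 0 turned sign. Among named differences under 2-fold, 46 recomputed values did change sign, among them Slc13a3 with MDP in naive cells (0.66 in place of -0.11 without less specific probe sets). Averaging probe sets accounted for 17 of the 29, and so for 17 of the 61 differences. Among them were Slc44a1 (0.49 with Pam3CSK4 against unstimulated), Slc9a9 (-0.92 and -0.76 after Pam3CSK4 pretreatment with MDP and with Pam3CSK4 second), Slc7a1 (-0.88 and -0.85) and Slc45a4 (-0.87 with Pam3CSK4 against unstimulated). These averages include probe sets below the array median, which shrink a difference. Second probe sets above the median on all 7 arrays also differed less for Slc44a1 (0.27) and Slc45a4 (-0.55), both with Pam3CSK4 against unstimulated. Those of Slc9a9 and Slc7a1 stayed past 2-fold after Pam3CSK4 pretreatment. Slc16a7, Slc25a30, Slc25a45, Slc37a2, Slc39a10 and Slc46a3 lost 2-fold under other alternatives, at 0.90 or more from 0. Slc20a1 after Pam3CSK4 then MDP moved farther, to -0.23 in place of -1.67 without less specific probe sets. That left only probe sets of Slc20a1 below the array median. Beyond these constructions, the cause was not tested. No paired analysis was possible because each group had 1 array, all with the same replicate number, and no array could be left out for the same reason. The values give no detection call, so how far a low level such as that of Slc13a3 lies above background is not known.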

Other observations

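Some of the 232 Slc genes at or below a mean of 8 also differed at least 2-fold. Slc7a2, a carrier of cationic amino acids that serves arginine uptake in activated macrophages, was at 8.59 with Pam3CSK4 and 7.76 with MDP in naive cells, against 5.58 in unstimulated cells. After MDP in both periods it was at 6.37, against 7.76 in naive cells with MDP. After MDP then Pam3CSK4 it was at 8.91, its highest level, and the Pam3CSK4-pretreated cultures were at 7.70 with Pam3CSK4 second and 7.94 with MDP second. Slc7a2 was the 1 gene of the 232 at least 2-fold higher with MDP in naive cells, and 1 was at least 2-fold lower, beside 0.072% and 0.198% of all 11116 genes at or below a mean of 8, levels under the array median being set to it. The lower one, Slc16a12, of the monocarboxylate carrier family, was at 4.98 with MDP, under the array median, against 6.74 in unstimulated cells.

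Slc26a11, a sulphate and anion transporter, was at 6.44 with Pam3CSK4 and 7.86 with MDP, against 8.78 in unstimulated cells. After Pam3CSK4 pretreatment it was at 7.73 with Pam3CSK4 second and 7.65 with MDP second. Slc5a3, the sodium-coupled inositol transporter, was at 6.12 and 6.40 in the Pam3CSK4-pretreated cultures, against 7.90 and 7.53 in naive cells with Pam3CSK4 and with MDP. Slc9a7, a sodium-proton exchanger of the Golgi, differed from naive cells there by -1.37 with Pam3CSK4 second and -1.51 with MDP second. Slc22a4, the ergothioneine transporter, was at 7.20 and 7.13, against 5.81 and 5.64. Of the 232 genes, 2 were at least 2-fold higher and 4 lower with Pam3CSK4 in naive cells, beside 0.864% and 1.17% of the 11116 genes. In both Pam3CSK4-pretreatment comparisons 3 were higher and 2 lower, beside 1.17% and 1.08% with Pam3CSK4 second and 1.04% and 0.666% with MDP second. After MDP then Pam3CSK4, 0 were past 2-fold against naive cells with Pam3CSK4, beside 0.126% and 0.018%.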
